A study of Homo sapiens with 4 samples.

Results

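The genes described here are 59 protein-coding genes on the short arm of human chromosome 8, all starting between 22.14 and 42.34 Mb of GRCh38, in 4 single-cell RNA libraries that counted 33538 genes. The stretch was picked because its genes were low in 1 of the libraries, RES-B, so every value of RES-B against another library is a description and none is a test. LNCaP is an androgen-sensitive human prostate cancer cell line, and the libraries were LNCaP given 0.1% DMSO for 48 h, LNCaP-ENZ48 given 10 µM enzalutamide for 48 h, and the resistant derivatives RES-A and RES-B, which were kept in 10 µM enzalutamide once established. Enzalutamide is an antiandrogen used against prostate cancer. RES-A came from long exposure to rising enzalutamide and RES-B from long exposure to a related antiandrogen, RD-162, and the resistant lines therefore differ from LNCaP in both drug at harvest and culture history. Each group was 1 library, so values carry counting error only, and a difference between lines cannot be told apart from a difference between these cultures.

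The short arm of chromosome 8 carries no single pathway. Its genes include the TRAIL death receptors, which start apoptosis when their ligand binds, a catalytic subunit of the NF-kB kinase, subunits of RNA polymerase III and of the general transcription factor TFIIE, DNA repair enzymes and parts of the vesicle transport machinery. In prostate cancer the arm is best known as a frequent site of loss. These libraries measure RNA, and gene dose was not measured here.

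The 4 libraries held 14727 kept cells of 17233 barcodes, from 1782 cells in LNCaP to 4569 in RES-A, and 50208831 to 60838227 UMIs (molecules counted once each) per library. Median UMIs per cell were 27079.5 in LNCaP and between 12138 and 13676 in the other 3. Levels are UMIs of a gene per 1000000 UMIs of the library, called CPM. Epithelial keratins and EPCAM summed to 720 to 1346 CPM, while markers of blood, fibroblast and endothelial cells summed to 3.0 to 4.6 CPM with 3 or 4 of 8 at 0. Kept barcodes shared between any pair of libraries numbered 2 to 9.

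The 59 genes together were lower in RES-B than in any other library. Their summed level was 1252 CPM in RES-B, 1792 CPM in RES-A, 1985 CPM in LNCaP-ENZ48 and 2267 CPM in LNCaP. RES-B thus held 55.3% of the LNCaP level, against 79.0% in RES-A and 87.6% in LNCaP-ENZ48. The 95% Poisson intervals of these sums, from 1243 to 1262 CPM in RES-B and from 1781 to 1803 CPM in RES-A, did not overlap. Sums are weighted towards genes with many UMIs, and 1 gene gave 20611 of the 113812 UMIs in LNCaP. By the median gene with a mean of at least 10 CPM, RES-B stood at 56.7% of LNCaP, RES-A at 88.4% and LNCaP-ENZ48 at 88.6%.

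Of the 59, 40 had a mean of at least 10 CPM over the 4 libraries, the minimum for a gene to be called measured here, and 19 did not. Ratios of the 19 are given, but some of them rest on few molecules. A gene is called lower when its log2 CPM ratio is -0.5 or less and higher when it is 0.5 or more. In RES-B over LNCaP, 32 of the 40 genes were called lower, against 10.6% of all 7460 genes at the same minimum, and 1 was called higher, against 18.6%. The median ratio of the 40 was -0.82, where that of all genes was 0.11. The 19 genes under the minimum had a median of -0.95, with 15 called lower and none higher. At a minimum of 1 CPM, which all 59 genes reached, 47 of the 59 were called lower, against 14.0% of 12627 genes. At that minimum 1 of the 59 was called higher, against 21.9%.

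The other 2 libraries as reference gave the same order. Against RES-A the 40 genes had a median log2 ratio of -0.72, with 29 called lower (7.79% of all genes) and 1 higher (16%). Against LNCaP-ENZ48 the median was -0.66, with 24 called lower (8.04% of all genes) and 1 higher (23.8%). RES-B had the lowest level of the 4 libraries in 34 of the 40 genes, against 17.8% of all genes. In 30 of the 40 its Poisson interval also lay below those of the other 3 libraries, against 10.8% of all genes. LNCaP had the highest level in 20 of the 40, against 22.6% of all genes.

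Among the libraries other than RES-B the member medians lay nearer those of all genes. RES-A over LNCaP had a member median of -0.18 beside 0.02 for all genes, with 10 called lower (14.7% of all genes) and 5 called higher (14.6%). LNCaP-ENZ48 over LNCaP had a member median of -0.17 beside -0.07, with 6 called lower (4.89%) and 1 higher (1.47%). RES-A over LNCaP-ENZ48 had 0.08 beside 0.10, with 7 called lower (11.1%) and 8 higher (18.1%). Of the 40, 9 were called lower than LNCaP in both resistant lines (6.05% of all genes), 23 in RES-B and not in RES-A (4.53%), and 1 in RES-A and not in RES-B (8.67%). These ratios share the LNCaP library. Whether the resistant lines differ was not tested, since each is a single library.

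**Figure D1:**
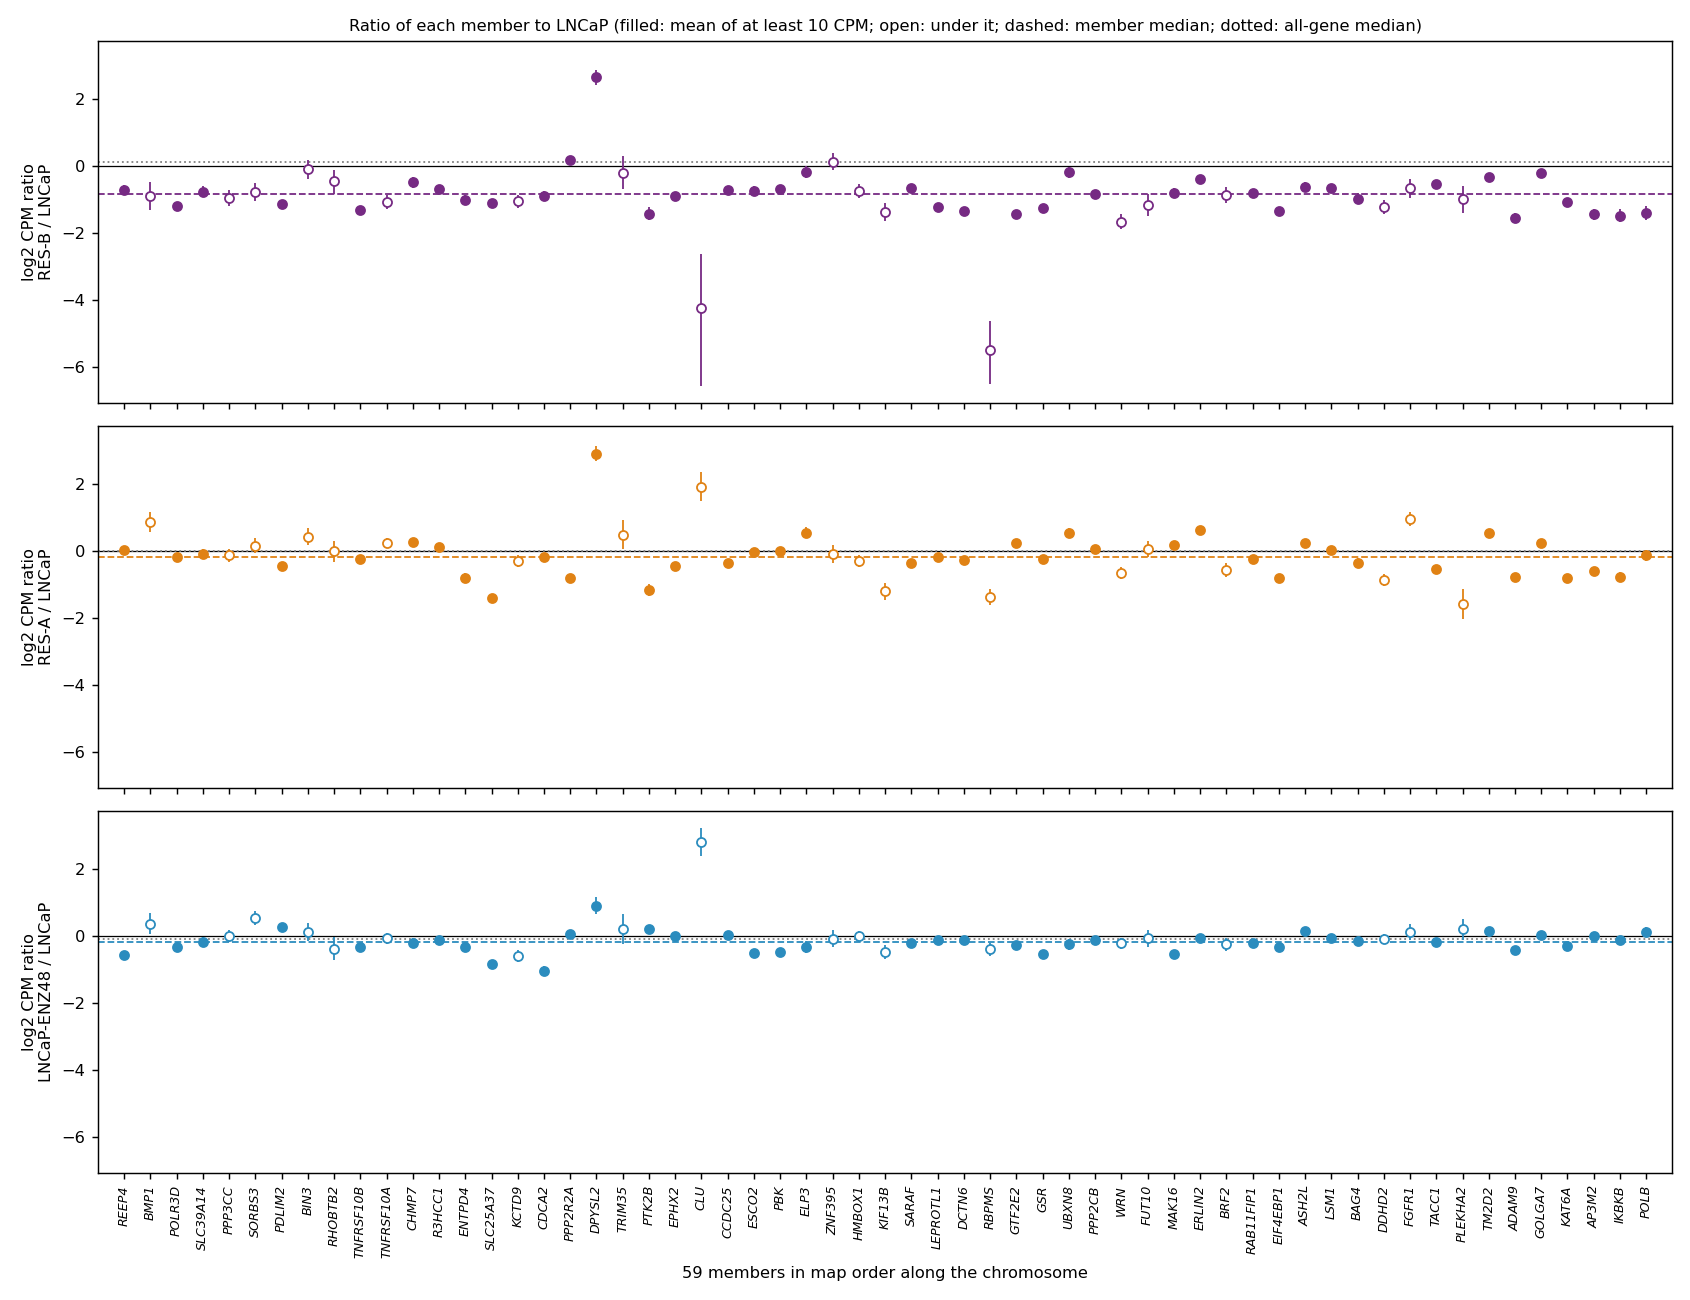
The log2 CPM ratio (y axis) of each of the 59 genes in map order (x axis) for RES-B, RES-A and LNCaP-ENZ48 over LNCaP, with exact 95% counting intervals as vertical lines; filled points have a mean of at least 10 CPM, dashed lines are medians of the 40 filled genes and dotted lines medians of all genes. The dashed median is at -0.82 in the RES-B panel, where the quartiles of the 40 genes are -1.22 and -0.63, and at -0.18 and -0.17 in the RES-A and LNCaP-ENZ48 panels; DPYSL2, CLU and RBPMS lie farthest out in the RES-B panel.

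The shift did not stop at the edges of the stretch. On the lower side, the 3 nearest measured genes outside it, INTS10, ATP6V1B2 and XPO7, had RES-B over LNCaP log2 ratios of -0.44, -0.71 and -0.66, and the first 3 inside it, NUDT18, REEP4 and POLR3D, had -0.65, -0.71 and -1.18. On the upper side, the last 3 inside, IKBKB, POLB and VDAC3, had -1.47, -1.38 and -0.67, and the next 3 outside, SLC20A2, SMIM19 and THAP1, had -0.80, -0.70 and -0.20. No break in level marked either edge.

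Along the whole of chromosome 8, the median level differed between the short arm and the long arm. The 30 measured genes below 22 Mb had a median log2 ratio of -0.71, with 23 called lower (10.6% of all genes) and none higher (18.6%). Within the stretch, all measured genes gave -0.73 between 22 and 29 Mb (24 genes), -1.11 between 29 and 37 Mb (10 genes) and -0.81 from 37 Mb to the end of the stretch (19 genes). The 7 genes from there to 45 Mb gave -0.75, and the 19 genes from 45 to 60 Mb gave 0.22. The last measured gene of the short arm, HGSNAT (chr8:43140464-43202855), a lysosomal acetyltransferase, was at -0.75, and the next measured gene, SPIDR (chr8:47260878-47736306), on the long arm, was at -0.14. Single genes varied near the border, as THAP1 on the short arm was at -0.20, so the place of the change is not resolved to 1 gene.

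Split at 45 Mb, a position chosen after the values were seen, the short arm had 90 measured genes with a median of -0.75, 72 called lower and 2 higher. The long arm had 189 with a median of 0.22, 16 called lower and 50 higher. The shares called lower were 80% on the short arm and 8.47% on the long arm. Of all genes 10.6% were called lower and 18.6% higher, and their median was 0.11. A running median over 11 neighbouring genes stayed between -1.07 and -0.61 in every window that lay wholly on the short arm and between -0.51 and 0.56 in every one wholly on the long arm. The 10 windows across the border ran from -0.75 to 0.17. In RES-A over LNCaP the arms had medians of -0.14 and 0.09.

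**Figure D2:**
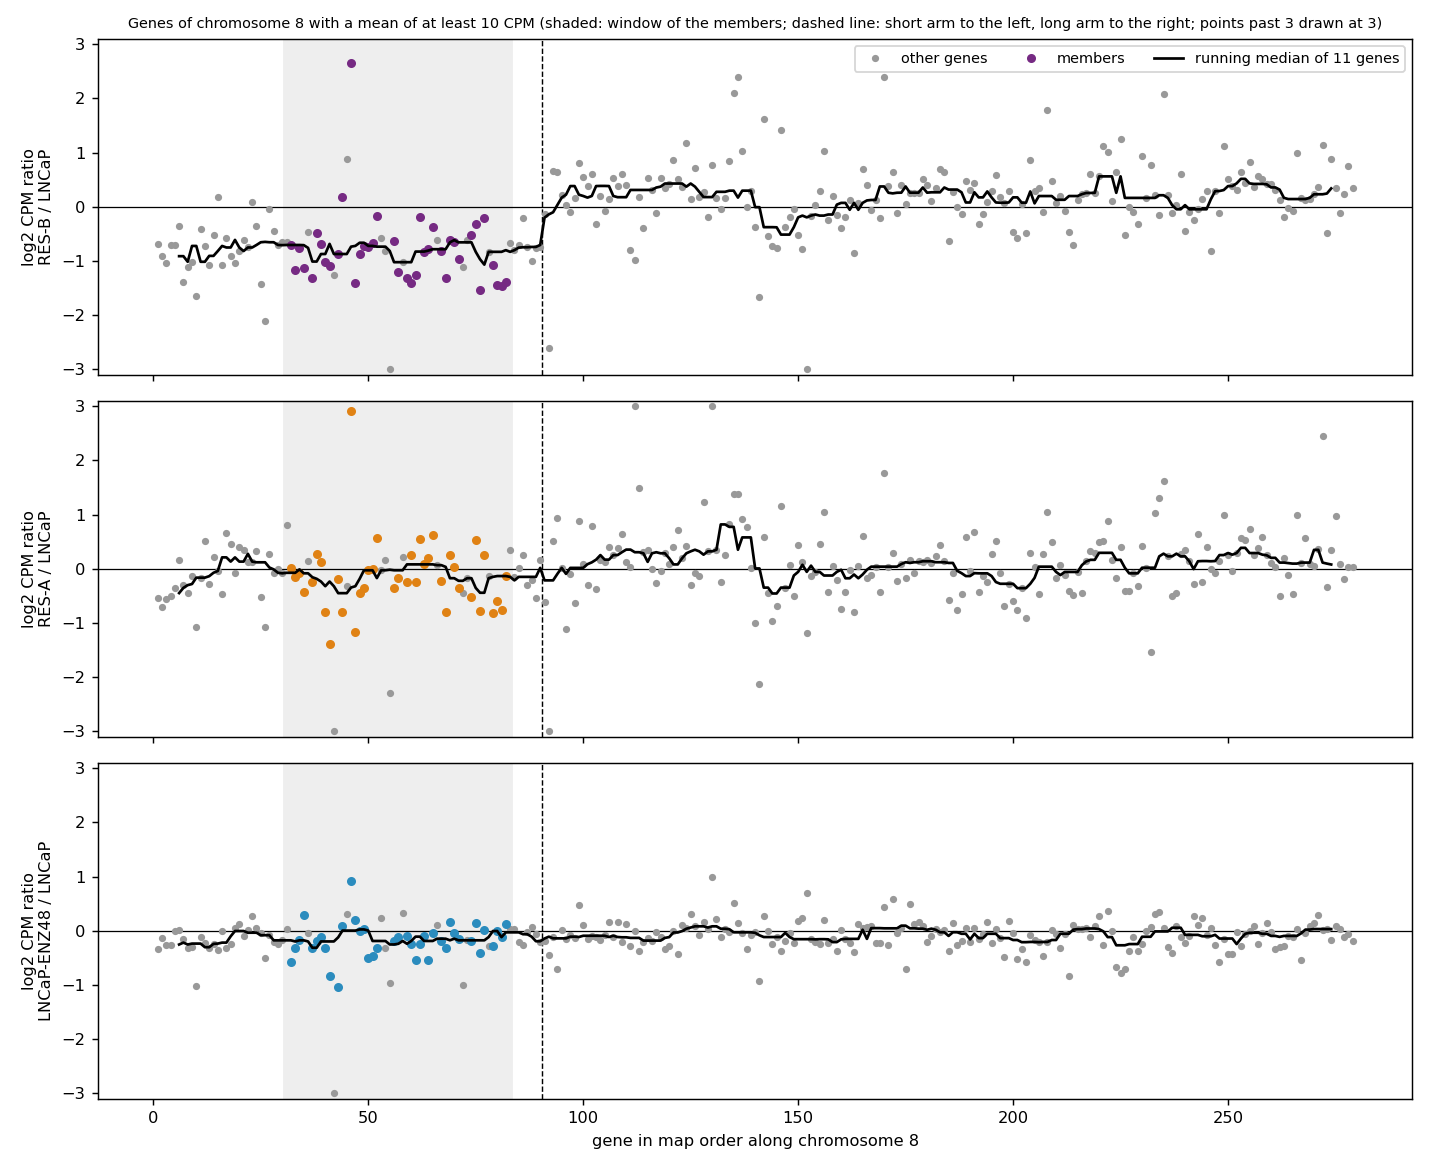
The log2 CPM ratio over LNCaP (y axis) of every chromosome 8 gene with a mean of at least 10 CPM, in map order (x axis), for RES-B, RES-A and LNCaP-ENZ48; coloured points are the genes described here, grey points other genes, the black line a running median of 11 genes and the dashed line the border between the arms. In RES-B the running median is between -1.07 and -0.61 in windows wholly to the left of the dashed line. In windows wholly to its right it is between -0.51 and 0.56. The medians of all genes left and right of the line are -0.14 and 0.09 in the RES-A panel and -0.17 and -0.07 in the LNCaP-ENZ48 panel.

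The short arm stood at one end of the order of chromosomes. With chromosome 8 in 2 pieces and every other chromosome whole, the genome gave 24 medians. Of the 90 measured short-arm genes, 53 lie in the stretch that was picked for its low RES-B level. Ranks of the short arm in ratios with RES-B are therefore a description, and single arms of other chromosomes were not ranked. In RES-B over LNCaP the short arm of chromosome 8, at -0.75, was the lowest of the 24, followed by chromosome 22 at -0.31, and chromosome 21 was the highest at 0.46. It was also lowest in RES-B over RES-A, at -0.70 before chromosome 22 at -0.36, and in RES-B over LNCaP-ENZ48, at -0.62 before chromosome 22 at -0.22. In LNCaP-ENZ48 over LNCaP it was again lowest, at -0.17, but next to chromosome 18 at -0.15. In RES-A over LNCaP it was the 5th lowest, at -0.14, and chromosome 15 was the lowest at -0.46.

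**Figure D3:**
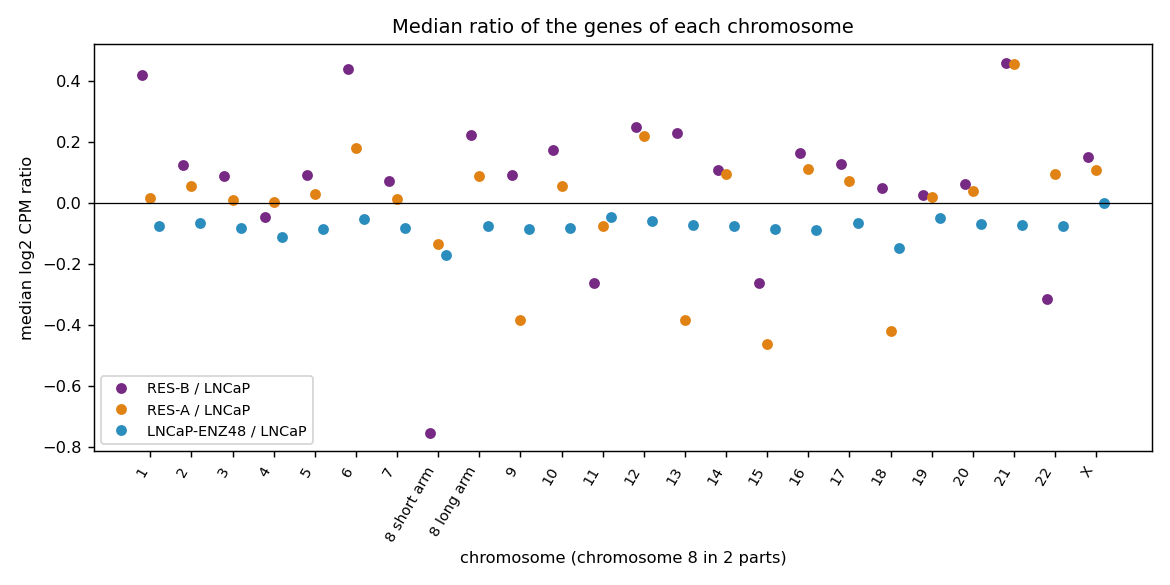
Median log2 CPM ratio (y axis) over the genes of each chromosome (x axis), with the arms of chromosome 8 apart, for RES-B, RES-A and LNCaP-ENZ48 over LNCaP. The RES-B point of the short arm of chromosome 8 is at -0.75, below every other point of the plot.

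Most measured genes of the stretch that are not among the 59 were also lower in RES-B than in LNCaP. The annotation gives the stretch 138 protein-coding genes, of which 125 had a UMI in some library, and 13 genes outside the list reached the minimum. Their median log2 ratio of RES-B over LNCaP was -0.67, with 11 called lower (10.6% of all genes) and 1 higher (18.6%). The lowest was DUSP4, a phosphatase that turns off MAP kinases, at 0.799 CPM in RES-B, 8.88 CPM in RES-A, 22.2 CPM in LNCaP-ENZ48 and 43.3 CPM in LNCaP. PLPP5, a lipid phosphatase, had a ratio of -1.11, and BNIP3L had the highest, 0.88. In RES-B over RES-A the median of the 13 was -0.67, with 10 called lower (7.79% of all genes) and 2 higher (16%). In RES-B over LNCaP-ENZ48 the median was -0.56, with 8 called lower (8.04%) and 2 higher (23.8%).

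Each role group of the 59 genes had a median below 0 in RES-B over LNCaP. The stretch was picked for its low level in RES-B, and 56 of the 59 ratios were below 0, against 2938 of 7460 over all genes. Group medians below 0 therefore largely follow from that choice and say nothing about function. The same holds for counts of lower genes within a group. In RES-B over LNCaP 47 of the 59 were called lower, against 14.0% of all genes at a minimum of 1 CPM. The groups, 12 in number, were formed by function, and their medians ran from -1.53 in the secreted and protease group to -0.62 in the ubiquitin group. In what follows, 4 levels given without names stand in the order RES-B, RES-A, LNCaP-ENZ48, LNCaP, and a ratio without further words is the log2 CPM ratio of RES-B over LNCaP.

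**Figure D4:**
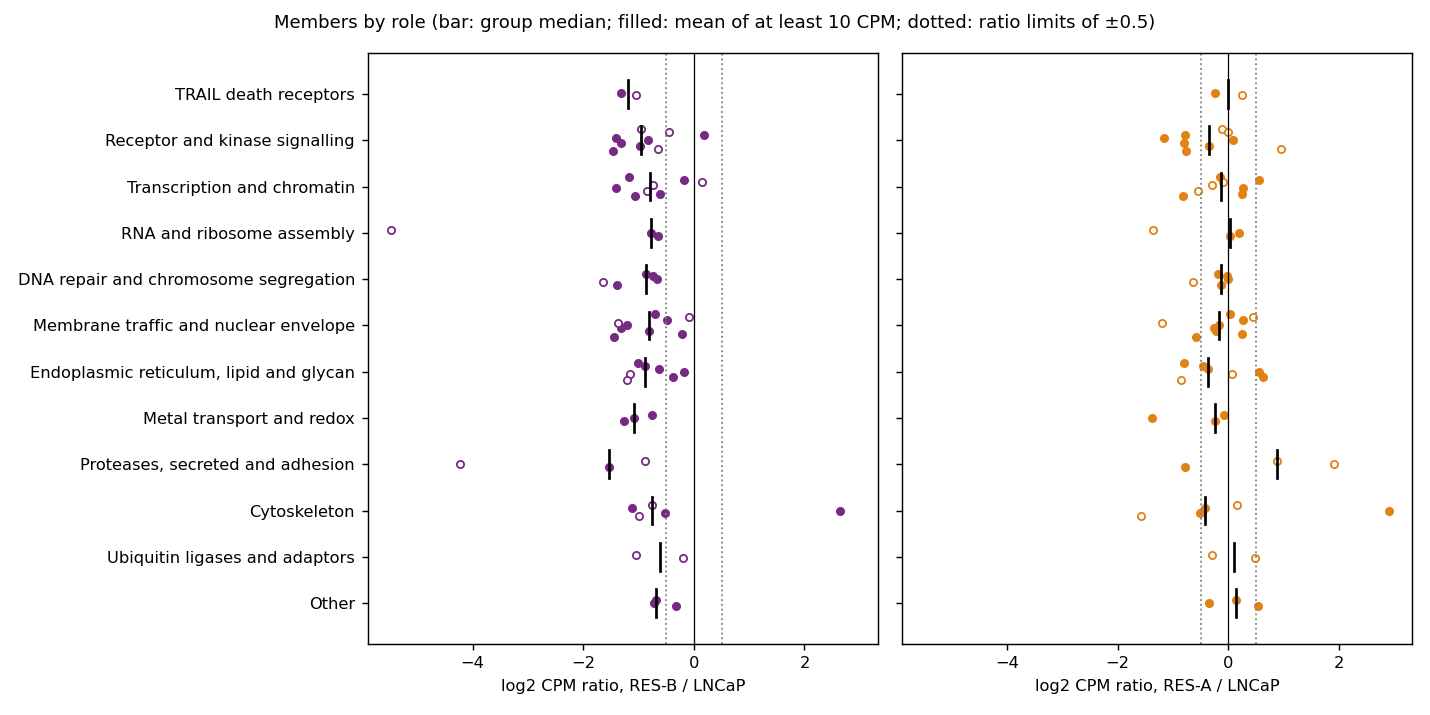
The log2 CPM ratio (x axis) of each of the 59 genes over LNCaP, grouped by role (y axis), for RES-B and RES-A; filled points have a mean of at least 10 CPM, black bars are group medians and dotted lines the limits of -0.5 and 0.5. In RES-B all 12 bars lie to the left of 0, from -1.53 to -0.62, while in RES-A they fall on both sides of it.

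The receptors came first at the cell surface. TNFRSF10B (chr8:23020133-23069031), the TRAIL receptor also called DR5, was at 11.5 CPM in RES-B, 24.5 CPM in RES-A, 23.2 CPM in LNCaP-ENZ48 and 28.8 CPM in LNCaP. Its log2 ratio of RES-B over LNCaP was -1.32 (95% interval -1.46 to -1.18). TNFRSF10A (chr8:23190452-23225102), the receptor DR4, was at 5.27, 12.96, 10.5 and 10.9 CPM in the same order of libraries, a ratio of -1.05 (-1.27 to -0.84). In both receptors the other 3 libraries lay closer to each other than to RES-B. Their intracellular partners, encoded on other chromosomes, did not follow in that ratio: FADD, the adaptor, was at 0.26 and CASP8, the initiator caspase, at 0.12. In RES-B over RES-A these 2 partners had ratios of -0.69 and -0.19, not listed in that order, so that 1 was called lower.

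FGFR1 (chr8:38400215-38468834), a receptor tyrosine kinase for fibroblast growth factors, was at 3.29 CPM in RES-B, 10.1 CPM in RES-A, 5.67 CPM in LNCaP-ENZ48 and 5.18 CPM in LNCaP. The resistant lines thus lay on opposite sides of LNCaP, with log2 ratios of 0.96 (0.75 to 1.18) in RES-A and -0.65 (-0.94 to -0.37) in RES-B. The RES-B value moved with the cells and molecules counted: with cells thinned to 5000 UMIs it was -0.29 and among cells called G1 -0.44, both short of the limit.

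Of the 9 genes of receptor and kinase signalling, 7 were called lower in RES-B and none higher. IKBKB (chr8:42271302-42332460), which encodes the kinase that releases NF-kB from its inhibitor, was the lowest, at 6.20 CPM in RES-B, 10.2 CPM in RES-A, 15.9 CPM in LNCaP-ENZ48 and 17.2 CPM in LNCaP. PTK2B, a focal adhesion kinase relative, was at 5.84, 6.94, 17.9 and 15.5 CPM in that order. Both kinases were low in both resistant lines and near the LNCaP level after 48 h of drug. EIF4EBP1 (chr8:38030534-38060365), a repressor of cap-dependent translation that mTOR switches off, formed a graded series, from RES-B to LNCaP, of 164, 235, 331 and 411 CPM. BAG4, a chaperone regulator, had a RES-B ratio of -0.97 and PPP3CC, a catalytic subunit of calcineurin, -0.95.

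The genes of protein phosphatase 2A on the arm parted. PPP2CB, a catalytic subunit, was at 20.5 CPM in RES-B, 38.6 CPM in RES-A, 34.0 CPM in LNCaP-ENZ48 and 36.4 CPM in LNCaP. PPP2R2A (chr8:26291508-26372680), a regulatory subunit, was at 126, 64.3, 118 and 111 CPM, so that RES-A was its lowest library and RES-B its highest. Elsewhere in the genome 6 further subunits of this phosphatase reached the minimum, with a median RES-B ratio of 0.27 and none called lower, among them the other catalytic subunit PPP2CA at 0.40.

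PPP2R2A did not stand alone on the map. Next to it lie BNIP3L, a mitophagy receptor outside the list, and DPYSL2 (chr8:26514031-26658178), and these 3 neighbours were the measured genes of the stretch with a RES-B over LNCaP ratio above 0. BNIP3L was at 213 CPM in RES-B, 92.4 CPM in RES-A, 144 CPM in LNCaP-ENZ48 and 115 CPM in LNCaP. DPYSL2, which encodes a microtubule-binding protein of growing axons, was at 22.6, 27.2, 6.80 and 3.60 CPM. DPYSL2 was higher in both resistant lines, with log2 ratios of 2.65 (2.42 to 2.88) in RES-B and 2.91 (2.69 to 3.14) in RES-A, and it was the 1 gene of the 40 called higher in RES-B. Against RES-A its RES-B ratio was -0.26 (-0.37 to -0.15).

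Of the 8 genes of transcription and chromatin, 6 were called lower in RES-B. GTF2E2 (chr8:30578318-30658236), the small subunit of TFIIE, was the lowest, at 17.1 CPM in RES-B, 54.4 CPM in RES-A, 38.2 CPM in LNCaP-ENZ48 and 45.5 CPM in LNCaP. The large subunit GTF2E1, on another chromosome, had a RES-B ratio of 0.62 beside -1.41 for GTF2E2. POLR3D, a subunit of RNA polymerase III, was at 17.6, 35.6, 31.7 and 39.7 CPM, and BRF2, an initiation factor of the same polymerase, at 4.76, 5.84, 7.25 and 8.58 CPM. The 11 other measured genes of that machinery had a median of -0.09, with 3 called lower, the lowest being BDP1 at -1.27.

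KAT6A, a histone acetyltransferase, was at 14.99 CPM in RES-B, 17.9 CPM in RES-A, 26.0 CPM in LNCaP-ENZ48 and 31.4 CPM in LNCaP, low in both resistant lines. ASH2L, a core subunit of the histone H3K4 methyltransferases, was at 12.1, 21.8, 20.5 and 18.4 CPM and low in RES-B alone. ELP3, the catalytic subunit of Elongator, was at 9.66, 16.1, 8.74 and 10.9 CPM, and its RES-B ratio of -0.17 missed the limit. HMBOX1, a homeobox factor, had a RES-B ratio of -0.73, which missed the limit at -0.36 in cells thinned to 5000 UMIs. ZNF395 was the highest of the group, at 5.23, 4.46, 4.52 and 4.74 CPM, with a RES-B interval of -0.11 to 0.40 that spans 0.

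RBPMS (chr8:30384511-30572256), an RNA-binding protein, had the lowest RES-B ratio of the 59. It was at 0.209 CPM in RES-B, 3.65 CPM in RES-A, 7.15 CPM in LNCaP-ENZ48 and 9.34 CPM in LNCaP, and the RES-B level rested on 11 UMIs. The log2 ratio was -5.48 (-6.49 to -4.63) in RES-B and -1.36 (-1.60 to -1.12) in RES-A. MAK16, a ribosome assembly factor, was called lower in RES-B and after 48 h of drug, with ratios over LNCaP of -0.78 in RES-B, 0.19 in RES-A and -0.54 in LNCaP-ENZ48. LSM1, of the ring that starts messenger RNA decay, was called lower in RES-B alone, at 45.02, 72.7, 68.8 and 70.98 CPM. The 6 other subunits of the LSM1 ring had a median of -0.01 with none called lower.

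All 5 genes of DNA repair and chromosome segregation were called lower in RES-B, as were 47 of the whole 59. WRN (chr8:31033788-31176138), the Werner syndrome helicase, was at 3.96 CPM in RES-B, 7.95 CPM in RES-A, 10.8 CPM in LNCaP-ENZ48 and 12.4 CPM in LNCaP, a RES-B ratio of -1.65 (-1.88 to -1.42). POLB (chr8:42338454-42371808), the polymerase of base excision repair, was at 5.35, 12.8, 15.2 and 13.9 CPM. WRN was graded over the resistant lines, whereas POLB was low in RES-B alone.

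The proliferation genes among them had a second pattern. CDCA2, ESCO2 and PBK, which act in mitosis or in sister chromatid cohesion, were called lower in RES-B and were near the LNCaP level in RES-A. CDCA2 and ESCO2 were also called lower in LNCaP-ENZ48, while PBK, at -0.46, missed the limit there. CDCA2 was at 13.7, 22.03, 12.3 and 25.04 CPM in that order, ESCO2 at 12.2, 20.1, 14.3 and 20.3 CPM and PBK at 35.0, 55.5, 40.4 and 55.5 CPM. Cells called G1 made up 76.0% of RES-B, 70.6% of RES-A, 84.2% of LNCaP-ENZ48 and 74.8% of LNCaP. Among cells called G1 alone the RES-B ratio was -0.29 in CDCA2 and -0.26 in PBK, both short of the limit, and -0.69 in ESCO2.

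Of the 9 genes of membrane traffic and the nuclear envelope, 6 were called lower in RES-B. AP3M2 (chr8:42152946-42171673), a subunit of the AP-3 adaptor that sorts cargo to lysosomes, was the lowest, at 8.56 CPM in RES-B, 15.4 CPM in RES-A, 23.1 CPM in LNCaP-ENZ48 and 23.2 CPM in LNCaP. Its relative AP3M1, on another chromosome, had a RES-B ratio of 0.02. KIF13B, a kinesin, was low in both resistant lines, at 3.29, 3.70, 6.10 and 8.48 CPM. BIN3, a membrane-bending protein, was the highest, at 3.94, 5.70, 4.62 and 4.20 CPM, with a ratio of -0.09 and an interval of -0.38 to 0.19 that spans 0.

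DCTN6 (chr8:30156319-30183639), a subunit of the dynein activator dynactin, was at 43.4 CPM in RES-B, 91.3 CPM in RES-A, 101 CPM in LNCaP-ENZ48 and 109 CPM in LNCaP. Its RES-B ratio of -1.32 (-1.40 to -1.25) stood beside 9 dynactin subunits from other chromosomes, whose ratios ran from 0.08 to 0.51 with a median of 0.32. LEPROTL1, which overlaps DCTN6 over 20890 bases on the same strand, had a ratio of -1.20, and how reads in the overlap were divided is not known from the counts. Among the 59 this was the only pair that overlaps on 1 strand.

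CHMP7, an ESCRT-III protein that reseals the nuclear envelope, just missed the limit at -0.48, with 9.87, 16.6, 12.0 and 13.8 CPM. GOLGA7, of the Ras palmitoylation enzyme, was at -0.21 and RAB11FIP1, of recycling endosomes, at -0.81. Of 10 other ESCRT-III genes, 1 was called lower.

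In the endoplasmic reticulum, lipid and glycan group, 5 of 7 genes were called lower. DDHD2, a triglyceride lipase, was the lowest, at 5.88 CPM in RES-B, 7.55 CPM in RES-A, 12.8 CPM in LNCaP-ENZ48 and 13.6 CPM in LNCaP. SARAF, which turns off store-operated calcium entry, was at 142, 172, 194 and 220 CPM, while the 5 genes of the channel and its calcium sensors had a median ratio of 0.37 with none called lower. UBXN8 and ERLIN2, which act in the removal of proteins from the endoplasmic reticulum, were the genes that missed the limit. UBXN8 was at 11.8, 19.7, 11.4 and 13.4 CPM and ERLIN2 at 18.5, 37.0, 23.2 and 24.0 CPM, both highest in RES-A.

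All 3 metal and redox genes were called lower in RES-B, as were 47 of the whole 59. SLC25A37, the mitoferrin that carries iron into mitochondria, was at 73.2 CPM in RES-B, 59.8 CPM in RES-A, 87.6 CPM in LNCaP-ENZ48 and 156 CPM in LNCaP, and with PPP2R2A it was 1 of 2 among the 40 with its lowest level in RES-A. GSR, glutathione reductase, was at 22.01, 44.6, 36.5 and 52.7 CPM. SLC39A14, a zinc and iron importer, was at 9.97, 15.9, 15.01 and 16.9 CPM, lower in RES-B alone. Of 5 other measured genes of glutathione and thioredoxin redox, 1 was called lower, TXNRD1 at -1.22.

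In the protease and secreted group all 3 genes were called lower in RES-B, as were 47 of the whole 59. ADAM9 (chr8:38996754-39105445), a membrane metalloproteinase, was graded at 13.4 CPM in RES-B, 22.6 CPM in RES-A, 29.03 CPM in LNCaP-ENZ48 and 38.7 CPM in LNCaP. CLU (chr8:27596917-27614700), the secreted chaperone clusterin, was at 0.0571, 4.06, 7.495 and 1.08 CPM, the RES-B level from 3 UMIs. CLU was thus higher than LNCaP after 48 h of enzalutamide, with a log2 ratio of 2.80 (2.39 to 3.24), and in RES-A, with 1.92 (1.49 to 2.37), and lower in RES-B, with -4.24 (-6.56 to -2.61). BMP1, a procollagen protease, was at 1.503, 5.11, 3.58 and 2.77 CPM, again with RES-A above and RES-B below LNCaP.

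The cytoskeletal genes other than DPYSL2 were all called lower. PDLIM2, an adaptor of actin filaments, was at 39.5 CPM in RES-B, 64.1 CPM in RES-A, 105 CPM in LNCaP-ENZ48 and 86.0 CPM in LNCaP, so that it was highest after short treatment. TACC1, a centrosomal protein, was at the same level in the resistant lines, 27.5 CPM in RES-B beside 27.7 CPM in RES-A, against 39.6 CPM in LNCaP, and its ratio of -0.52 missed the limit at -0.47 when 1 cell filter was used for all libraries. PLEKHA2, a phosphoinositide-binding adaptor, was at 1.60, 1.06, 3.65 and 3.17 CPM, lowest in RES-A, and its RES-B ratio of -0.99 missed the limit at -0.40 in thinned cells.

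KCTD9, an adaptor of a ubiquitin ligase, was at 5.99 CPM in RES-B, 10.2 CPM in RES-A, 8.23 CPM in LNCaP-ENZ48 and 12.4 CPM in LNCaP, a RES-B ratio of -1.05. TRIM35, a member of the tripartite motif family, was at 1.27, 2.04, 1.68 and 1.45 CPM, and its RES-B ratio of -0.19, from 67 UMIs in RES-B, had an interval of -0.69 to 0.31. Of the 3 remaining genes, CCDC25 and R3HCC1 were called lower at -0.72 and -0.69. CCDC25 was at 55.8, 72.5, 93.8 and 92.1 CPM. TM2D2 missed the limit at -0.32, with 17.6, 31.7, 24.3 and 21.9 CPM.

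The relatives and complex partners of the 59 genes that lie outside the stretch had no such shift. A list of 109 partner genes was drawn up from the complexes above, of which 83 reached the minimum. Their median log2 ratio of RES-B over LNCaP was 0.12, beside 0.11 for all genes. Of these 83, 7 were called lower (10.6% of all genes) and 14 higher (18.6%). Against RES-A the partner median was -0.02 beside 0.09 for all genes, with 4 called lower (7.79% of all genes) and 5 higher (16%). In RES-B over LNCaP the nearest to an exception was Elongator, in which ELP5 at -0.76 and ELP2 at -0.71 were called lower out of 4 measured partners of ELP3. The 2 measured partners of KAT6A and the 2 of PPP3CC also had medians below 0, -0.40 and -0.32, with none called lower.

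The lower level in RES-B was seen over its whole distribution of cells. In cells thinned to 5000 UMIs each, the 59 genes together gave a median of 6 UMIs in RES-B, 9 in RES-A, 10 in LNCaP-ENZ48 and 11 in LNCaP. The 5th to 95th percentiles were 5 to 18 in LNCaP and 2 to 11 in RES-B. Of RES-B cells 91.9% had fewer than the LNCaP median, against 44.7% of LNCaP cells, 60.1% of LNCaP-ENZ48 cells and 71.9% of RES-A cells. These summed UMIs are weighted towards the genes with the most UMIs. None of the 59 genes gave a UMI in 13 RES-B cells, and in no cell of the other libraries.

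**Figure D5:**
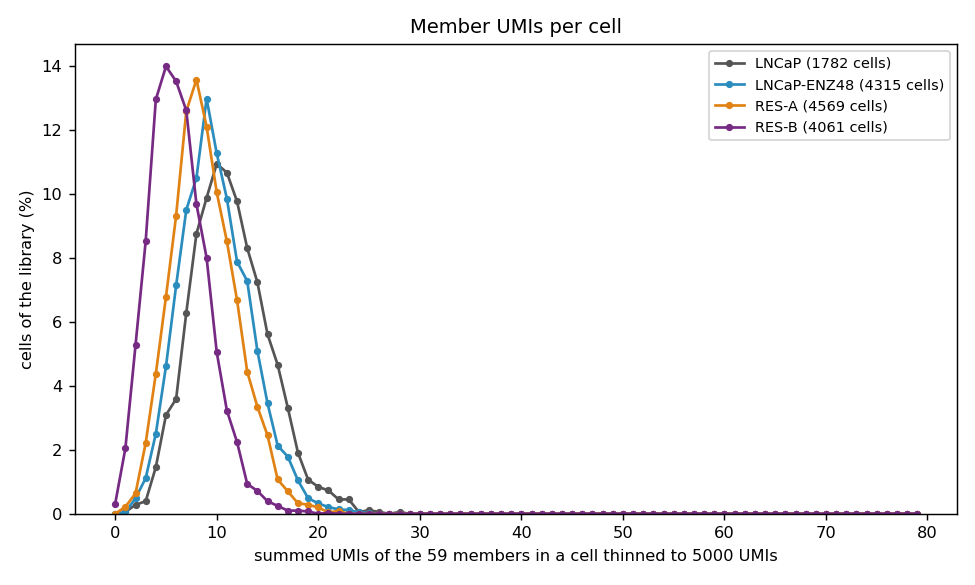
Share of the cells of each library (y axis, percent) by the summed UMIs of the 59 genes in a cell thinned to 5000 UMIs (x axis). Each library forms 1 peak, with medians of 6 in RES-B, 9 in RES-A, 10 in LNCaP-ENZ48 and 11 in LNCaP.

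The spread within RES-B was somewhat wider than counting alone gives. The variance of the member UMIs over their mean was 1.33 in RES-B, 1.30 in LNCaP, 1.22 in LNCaP-ENZ48 and 1.17 in RES-A, and among cells called G1 it was 1.28 in RES-B and 1.04 to 1.14 in the others. Cells called G2M had more member UMIs than cells called G1 in each library, with means of 7.49 and 5.97 in RES-B and 13.8 and 10.6 in LNCaP. The order of the libraries was the same in both phases.

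Cells were also ranked by their UMIs from short-arm genes outside the stretch and split into 5 groups of equal size. In RES-B the 59 genes summed to 1163 CPM (95% interval 1130 to 1197) in the lowest group and 1385 CPM (1349 to 1422) in the highest. In RES-A the same groups gave 1731 CPM and 1871 CPM, and in LNCaP 2148 CPM and 2444 CPM. The highest group of RES-B was therefore below the lowest group of every other library. The ranking was a weak one. Over RES-B cells, member UMIs correlated at 0.15 with the ranking genes and at 0.11 with measured long-arm genes, and over LNCaP cells at 0.15 and -0.07. Cells called G1 made up 84.0% of the lowest and 63.0% of the highest LNCaP group, and 78.7% and 75.6% in RES-B. The groups thus do not set cells apart by short-arm level alone.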

How the data were processed

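The 4 libraries were 10x 3' single-cell RNA libraries, 1 per group. Per the labels, the deposited UMI counts came from Cell Ranger 3.0.2 on GRCh38. Cells were kept by the study's limits per library on genes (1500 to 5000, or 3000 to 7000 in LNCaP), UMIs (5000 to 25000, or 16000 to 50000) and mitochondrial share (under 15, 15, 17 and 20%); doublets were neither called nor removed. UMIs were summed over kept cells and divided by the library total. Levels have exact Poisson intervals and log2 ratios exact conditional binomial (Clopper-Pearson) intervals, all at 95% and for counting error only. With 1 library per group no test was run and no p-value is given; depth limits precision, and LNCaP had the deepest cells. Coordinates are from GENCODE 44 (GRCh38), matched by gene ID for 33113 genes, and may differ from the annotation used in counting.

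The members, role groups, partner lists and tests were chosen with earlier results of these data known. Every member could be named; levels in all libraries are given for the lowest and highest gene of each role and the 10 lowest and 5 highest of all, and ratios for the genes at the edges, with others added after their values were seen. Alternatives were other scalings (edgeR 4.0.16 TMM, DESeq2 1.42.0 size factors, used for factors alone), minimum levels, cell filters, cell cycle, cell weights and depth. The ratio step was tested on simulated data. Analyses used Python 3, pandas and scipy. Some genes that enter the counts and medians are not reported here by name.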

Additional observations from a re-analysis of the deposited data

Results flagged for a closer look

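In 3 of the 59 genes the single RES-A library and the single RES-B library lay on opposite sides of LNCaP by at least 0.5 on the log2 scale. None of the 3 reached the minimum of 10 CPM; among genes that did, RES-A was called higher and RES-B lower in 0 of 40 members and in 0.241% of all genes. BMP1 had a log2 ratio over LNCaP of -0.88 in RES-B against 0.88 in RES-A. CLU had -4.24 in RES-B, where it rested on 3 UMIs, against 1.92 in RES-A. FGFR1 had -0.65 in RES-B against 0.96 in RES-A, and its RES-B ratio was short of the limit at -0.29 in thinned cells and -0.44 in cells called G1. The difference between the lines was not tested, since each is 1 library and both ratios share LNCaP.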

How the results depend on the processing

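No paired analysis was possible because each group is 1 library. Of 59 genes, 41 were called lower in RES-B over LNCaP under all 8 scalings, cell choices and depths, and 55 were below 0 in each. For the 40 measured members these counts were 29 and 38. Of all genes, 10.3 to 14.3% were called lower in RES-B over LNCaP in single settings. The share of all genes called lower in every setting was not counted. The median of the measured members in that ratio ran from -0.93 with edgeR TMM factors to -0.75 with all short-arm genes of chromosome 8 in their place, a set chosen after seeing the data, and relative to all genes from -1.04 to -0.87. TMM and DESeq2 factors moved the median of all genes in RES-B over LNCaP from 0.11 to 0.0056 and 0.013, and in RES-B over LNCaP-ENZ48 from 0.20 to -0.0062 and -0.0044. The share of lower among all calls went with TMM from 36.2% to 51.7% in RES-B over LNCaP, from 25.3% to 54.3% in RES-B over LNCaP-ENZ48, from 76.8% to 55.2% in LNCaP-ENZ48 over LNCaP and from 38.0% to 59.8% in RES-A over LNCaP-ENZ48. With TMM and DESeq2 in turn, the member median was -0.90 and -0.90 in RES-B over LNCaP-ENZ48 and -0.073 and -0.067 in LNCaP-ENZ48 over LNCaP, members called lower numbered 2 and 2 in the latter (3.05 and 2.98% of all genes) and 13 and 12 in RES-A over LNCaP-ENZ48 (16.8 and 16.5%), the partner median was 0.013 and 0.023, and that of the long arm 0.12 and 0.12. In cells called G1, 3 members were lower in LNCaP-ENZ48 over LNCaP (3.28%), and in thinned cells 11 in RES-A over LNCaP-ENZ48 (11.6%).

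At a minimum of 1 CPM all 59 members entered, and 38 were called lower in RES-B over LNCaP-ENZ48 (11.3% of all genes), 16 in RES-A over LNCaP (18.2%) and 12 in RES-A over LNCaP-ENZ48 (14.4%). At a minimum of 50 CPM only 8 members remained, of which 7 were called lower in RES-B over LNCaP (9.10% of all genes), 4 in RES-B over RES-A (8.43%), 5 in RES-B over LNCaP-ENZ48 (7.55%), 3 in RES-A over LNCaP (10.4%), 1 in LNCaP-ENZ48 over LNCaP (3.06%) and 3 in RES-A over LNCaP-ENZ48 (9.27%). The medians of these 8 were -0.45 in RES-B over RES-A, -0.39 in RES-A over LNCaP, -0.074 in LNCaP-ENZ48 over LNCaP and -0.43 in RES-A over LNCaP-ENZ48, and relative to all genes -0.47, -0.48 and -0.55 in the first, second and last of these. Below 22 Mb the RES-B over LNCaP median at that minimum was -0.53. Counting error is the limit for CLU and RBPMS, and less so for genes under the minimum that had more UMIs.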
